A study of Mus musculus with 4 samples.

Results

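The C-type lectin, Klr and Siglec receptors are surface proteins by which cells read sugar chains or the proteins of other cells. The group was chosen by gene symbol alone: genes whose names begin with Clec, Klr, Siglec or Cd209, together with Cd22, Cd33, Cd69, Cd72, Mrc1 and Mrc2. The secreted or matrix proteins Clec3a, Clec3b and Clec11a were left out. This gave 49 of the 909 genes that could be named, each represented by whichever of its probe sets was brightest on average. They were measured on 4 expression arrays of vascular smooth muscle cells from wild-type mice, all grown in osteogenic medium so that they take on bone-like traits. For 2 arrays the medium held 0.4 mM streptozotocin, a nitrosourea that carries a sugar group, and the 2 control arrays came from cells without it. The titles name the cells WT2 (replicate 1) or WTA (replicate 2), each present once with and once without the compound, and these are called cultures below. Every title also carries the mark 3w, which could be a time or an age and which the labels do not explain. The labels used here give no strain, no other age and no number of animals, and do not say whether the cultures came from separate animals, so p-values measure only the spread between these 4 samples.

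C-type lectin receptors carry a calcium-dependent fold that binds mannose, galactose or glucan chains of microbes and of the body's own proteins. The Klr receptors of natural killer cells have kept that fold but mostly bind proteins, above all class I histocompatibility molecules, and their genes lie in a cluster whose content is known to differ between inbred mouse strains. Siglecs bind sialic acid at the ends of glycans, and most of them dampen immune cells through inhibitory motifs in their tails. Nearly all of these receptors are best known from leukocytes. Exceptions are Mrc2, a collagen-internalising receptor of mesenchymal cells, and Clec2d, a ligand of natural killer receptors that osteoblasts also make.

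Of the 49 genes, 29 lie on chromosome 6, among them all 10 Klra genes. The promoters of Klra2, Klra4 and Siglecg are shown because these 3 genes had the largest differences between the cultures. Each line gives the 250 bases before the start site that RefSeq lists (first listed start, GRCm38.p6), 5′ to 3′ on the gene's strand. They lie at chr6:131247363-131247612 (minus strand) for Klra2, chr6:130067272-130067521 (minus strand) for Klra4 and chr7:43407989-43408238 (plus strand) for Siglecg. Capitals mark the longest stretch of letters that the promoters of Klra2 and Klra4 have in common.
Klra2: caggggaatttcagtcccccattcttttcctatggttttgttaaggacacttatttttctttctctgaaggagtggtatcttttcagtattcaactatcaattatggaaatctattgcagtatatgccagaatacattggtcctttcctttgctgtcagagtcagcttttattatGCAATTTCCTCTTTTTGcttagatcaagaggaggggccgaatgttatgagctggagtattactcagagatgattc
Klra4: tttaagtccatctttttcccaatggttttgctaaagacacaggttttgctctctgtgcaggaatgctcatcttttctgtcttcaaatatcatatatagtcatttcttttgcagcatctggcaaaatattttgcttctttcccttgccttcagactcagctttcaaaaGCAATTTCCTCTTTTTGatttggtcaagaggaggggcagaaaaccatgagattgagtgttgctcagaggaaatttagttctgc
Siglecg: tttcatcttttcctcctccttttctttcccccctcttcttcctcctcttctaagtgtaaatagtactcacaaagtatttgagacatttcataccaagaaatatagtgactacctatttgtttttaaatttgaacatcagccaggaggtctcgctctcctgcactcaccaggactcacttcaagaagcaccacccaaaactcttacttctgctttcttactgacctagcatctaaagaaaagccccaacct
The shared stretch, GCAATTTCCTCTTTTTG, is 17 bases long. Searched on both strands, it was found in the promoters of 5 of the 10 Klra genes among the receptors: Klra2, Klra3, Klra4, Klra6 and Klra9. Of all 27025 promoters in the RefSeq table, it was in 0.0185%, which are the same 5. It was not in the Siglecg window. Over the 250 bases, Klra2 and Klra4 were 70.3% identical after a global alignment. Among the 10 Klra genes, Klra4 was closest to Klra8, at 84.5%. The windows of Klra2 and Siglecg each held 1 CpG dinucleotide and that of Klra4 held 0. The median was 2 over the 40 members with a promoter in the table and 6 over all promoters, and 24 of the 40 had 2 or fewer, against 29.6% of all promoters.

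The first question was which of these receptors stood above the middle of the array and which looked like background. The array held 1246 probe sets, and the median of their means over the 4 arrays, called the array median level, was 5.86 on the log2 scale of the deposited values. Of the 49 receptors, 4 lay above it: Mrc2, Clec2d, Siglecg and Siglec15. Of all 909 named genes, 57.0% did. The median over the receptors was 3.97, against 6.60 over all named genes, and the upper quartile of all probe sets was 8.61, which Mrc2 passed and Clec2d, with a mean of 8.56, did not. The position of a probe set depends on its probes as well as on its gene, so the order of the receptors is an order of signals and not of transcript numbers.

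Mrc2, the collagen receptor, stood at 10.74 in control and 10.40 in streptozotocin cells of WT2, and at 10.23 in both WTA arrays, higher than 91.0% of the probe sets. Mrc1, the mannose receptor of macrophages and the other mannose receptor among the members, stood at 4.06, 4.09, 3.87 and 3.87 in the same order. The 2 relatives thus lay on opposite sides of the array median level on every array. Clec2d had values of 8.28 (control) and 8.60 (streptozotocin) in WT2, and 8.88 and 8.47 in WTA. Its relative Clec2h stood at 2.52, 2.64, 2.75 and 2.82, among the 5 lowest receptors.

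Among the 8 Siglecs, Siglecg, an inhibitory receptor best known from B cells, stood at 6.28 (control) and 6.65 (streptozotocin) in WT2, and at 7.44 and 7.74 in WTA. Siglec15, known from osteoclasts, had values from 6.13 to 6.17 on the 4 arrays, a range of 0.033. It lay 0.29 above the array median level and was the nearest member above it, while the nearest below was Klra9, 0.065 under it. The other 6 Siglecs had lower means. Cd22, a B-cell receptor, was at 5.77, Siglec1, the sialoadhesin of macrophages, at 5.35, and Siglece, an inhibitory receptor of myeloid cells, at 5.12. Siglech, known from plasmacytoid dendritic cells, was at 3.85, Siglecf, known from eosinophils, at 3.46, and Cd33, a myeloid receptor, at 3.28.

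Apart from Clec2d, the remaining families had means below the array median level. The 10 Klra genes ran from 2.55 (Klra3) to 5.79 (Klra9), and the 6 other Klr genes, among them the natural killer receptor genes Klrk1 (3.08), Klrd1 (3.48) and Klrc1 (3.56), from 2.96 to 4.40. The 5 Cd209 genes, relatives of a dendritic cell lectin, ran from 3.95 to 5.58. Of the 16 Clec genes, 15 lay below, with Clec4f, a lectin of liver macrophages, at 4.79 and Clec10a, a galactose-binding lectin of macrophages, at 4.70. Clec4e, a receptor for mycobacterial glycolipid, was at 2.85 and Clec4a2, an inhibitory receptor of dendritic cells, was the lowest of all, at 2.34. Cd69, an early activation marker of lymphocytes, stood at 2.92 and Cd72, of B cells, at 4.76.

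The table holds no detection calls, so cytokines of lymphocytes, which smooth muscle cells are not known for, served as a yardstick for background. The 10 that were measured, among them Il2, Il4, Il17a and Ifng, had means from 2.58 to 4.55. Of the 49 receptors, 33 lay within that range and 2, Klra3 and Clec4a2, lay below it. Between its upper end and the array median level lay 10: Klra9, Cd22, Cd209a, Siglec1, Siglece, Klra2, Clec4f, Cd72, Clec10a and Klra5. These means hide the Klra genes that varied: Klra4 had a mean inside the range, but its WTA values were above it. The yardstick rests on 10 genes, and Mag, a protein of myelin that is not among them, had a mean of 5.80. A mean above the range therefore does not by itself show that a gene was expressed. The same limit applies to Siglec15, whose mean was 6.15 and whose values barely varied.

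**Figure D1:**
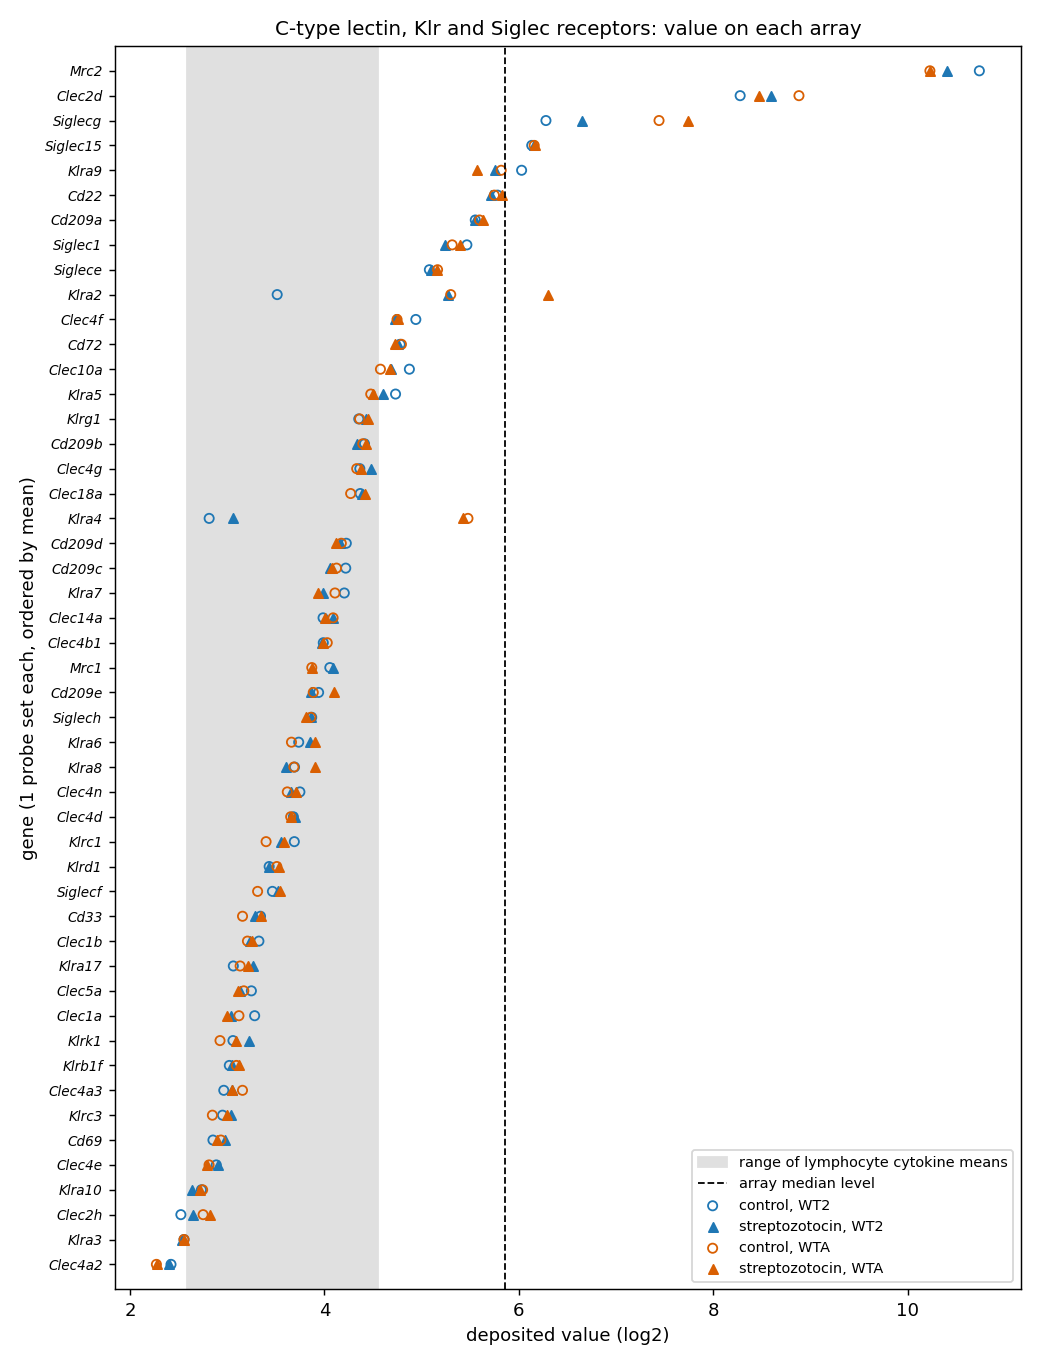
The deposited log2 value of each of the 49 receptors (rows, ordered by mean) on each of the 4 arrays, with the range of the means of 10 lymphocyte cytokines in grey and the array median level, 5.86, as a dashed line. Only Mrc2, Clec2d, Siglecg and Siglec15 lie right of the line on all 4 arrays, and Klra2 and Klra4 have the widest spread.

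Most receptors barely varied. The range over the 4 arrays was under 0.5 for 44 of the 49, and the 5 exceptions were Mrc2 (0.51), Clec2d (0.60), Siglecg (1.46), Klra4 (2.66) and Klra2 (2.79). Of the 45 at or below the array median level 2 had a wider range, as had 59 of the 623 probe sets at or below that level. The median SD over the 4 arrays was 0.078 for the receptors, 0.091 for those 623 probe sets and 0.119 for all probe sets. For 3 receptors, Klra3, Clec4b1 and Clec4a3, at least 2 arrays held the identical deposited value, 6.12% of the 49, against 5.14% of the probe sets at or below the array median level and 2.89% of all.

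Markers of other cells were few on this array. Of 33 markers of leukocytes and macrophages 7 had a named probe set, and 1 of them, Csf1r, the receptor of the macrophage growth factor, lay above the array median level, at 7.61. Adgre1, which defines mouse macrophages, was at 2.95 and Ccr2, of monocytes, at 3.43, both within the cytokine range. Of the 7, 4 lay within that range and 3 above it: Csf1r, Cx3cr1 (5.13) and Cd2 (4.71). The median of the 7 was 4.20 (control) and 4.23 (streptozotocin) in WT2, and 4.05 and 4.06 in WTA. All 9 measured genes of the smooth muscle and mesenchymal list, such as Bgn, Dcn and Pdgfrb, lay above the array median level, but its defining contractile genes Acta2, Tagln and Myh11 had no named probe set here. In such cultures, fewer cells of a type and less RNA per cell cannot be told apart.

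The second comparison asked which receptors differ between streptozotocin and control cells. None passed the test: limma called 0 of the 49 at an adjusted p under 0.05, where the background was 0% of all 1246 probe sets. At an unadjusted p under 0.05 there were 0 receptors and 25 probe sets. With the replicate number as a block, so that each treated array is set against the control of its own culture, limma called 0 receptors, and 2 (Klra2 and Siglecg) had an unadjusted p under 0.05, against 80 of all probe sets. The median difference over the receptors was 0.00, and -0.01 over all probe sets, and 47 of the 49 receptors differed by less than 0.3 on the log2 scale. Of the 49, 14 were higher and 11 lower with streptozotocin in both cultures, against 281 and 355 of the 1246 probe sets.

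Klra2, an inhibitory receptor known from myeloid cells, had the largest difference. Its values were 3.51 in control and 5.27 in streptozotocin cells of WT2, and 5.30 and 6.30 in WTA. Streptozotocin was thus higher in both cultures, by 1.76 in WT2 and 1.00 in WTA, but the groups overlapped, because control WTA cells lay level with treated WT2 cells. The group means were 5.79 ± 0.73 with streptozotocin and 4.41 ± 1.26 without (SD, n = 2 each), a difference of 1.38 (SE 0.76, 95% interval -0.81 to 3.58), which did not pass (limma adjusted p = 1). With the replicate block the SE was 0.22, the interval 0.76 to 2.00 and limma's adjusted p 0.585. With 1 array left out the difference ran from 0.49 to 2.27, the lowest without the control array of WT2. That array lay within the range of the lymphocyte cytokines, where differences are compressed.

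Klra2 was also the only receptor past 1.5-fold in either culture. In WT2 it was 1 of 49 that were at least 1.5-fold higher, against 4.82% of all probe sets, and in WTA 1 of 49, against 0.642%. In the other direction there were 0 of 49 in either culture, against 2.49% of all probe sets in WT2 and 1.69% in WTA. These counts rest on 1 array per arm and have no test.

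Siglecg was higher with streptozotocin by 0.37 in WT2 and 0.30 in WTA, a difference of 0.34 (SE 0.59, 95% interval -1.37 to 2.04, limma adjusted p = 1), since the fit counts the larger gap between its cultures as noise. Without the control array of WT2 or the streptozotocin array of WTA its direction turned, to -0.25 and -0.21. With the block its SE was 0.095 and limma's adjusted p 0.711. Klra9, another inhibitory receptor for class I molecules, had the largest difference downwards, -0.26, with -0.27 in WT2 and -0.25 in WTA. Its control values of 6.03 and 5.82 lay above its streptozotocin values of 5.76 and 5.57, so its groups did not overlap. With 2 arrays per group such a separation says little by itself, and Klra9 did not pass (limma's adjusted p 0.738 with the block). Klra7, an inhibitory receptor, followed at -0.20 and Clec1a, known from dendritic and endothelial cells, at -0.18. Upwards, the next were Klra6 (0.18), a receptor of the same family, Klrk1 (0.17), an activating receptor for stress-induced ligands, and Siglecf (0.14). Klra7, Clec1a, Klra6, Klrk1 and Siglecf all had means within the cytokine range, and their groups did not overlap either. How many of all probe sets were separated in this way was not counted. The largest differences among marker genes were -0.83 for Lum and -0.44 for Fmod (mesenchymal), 0.60 for Thbd and -0.47 for Cd34 (endothelial), 0.17 for Cd2 and -0.11 for Cx3cr1 (leukocyte), and -0.16 for Il5 and for Ifng (lymphocyte cytokines), and none passed.

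Apart from Siglecg, described above, the receptors above the array median level showed small or opposite differences. In Mrc2 streptozotocin minus control was -0.34 for WT2 and -0.00 for WTA, and its mean difference of -0.17 (95% interval -0.78 to 0.45) turned to 0.086 without the control array of WT2. For Clec2d the cultures went opposite ways (0.32 in WT2, -0.41 in WTA), which left a mean of -0.05 (95% interval -0.74 to 0.65). That mean turned to 0.02 without the streptozotocin array of WTA and to 0.26 without its control array. Siglec15 differed by 0.01 (95% interval -0.22 to 0.25). These intervals do not show that the receptors did not respond.

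**Figure D2:**
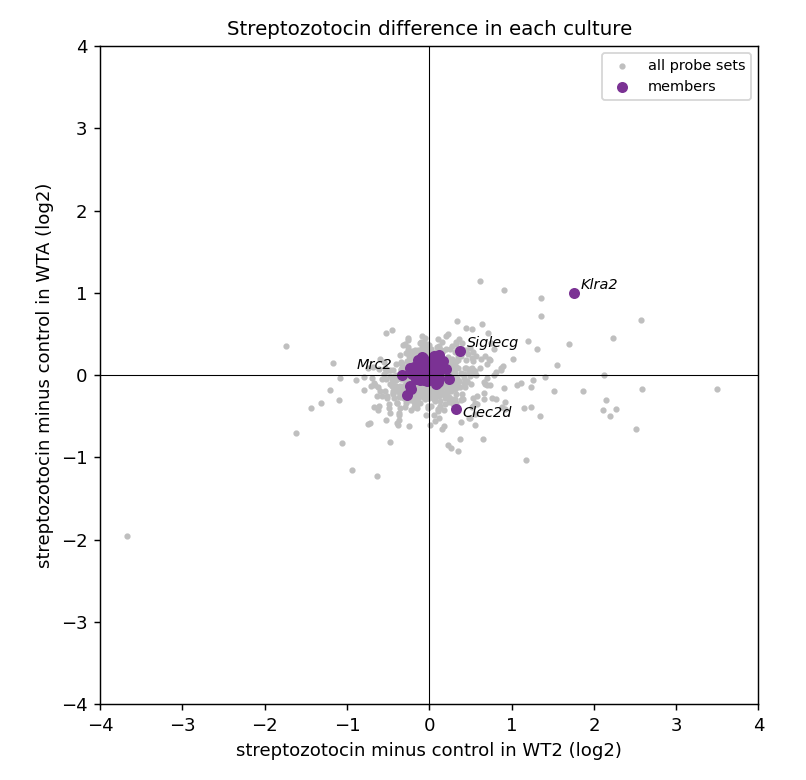
Streptozotocin minus control on the log2 scale in WT2 (horizontal) and WTA (vertical), 1 pair of arrays each, for the 49 receptors (purple) and all 1246 probe sets (grey). Klra2 stands apart at 1.76 and 1.00, Clec2d lies on opposite sides of 0, and the other receptors gather around the origin.

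The third comparison asked which receptors differ between WTA and WT2, with the treatment as a term of the fit. Its p-values measure how alike the culture difference was in control and in treated cells, and hold no spread between cell samples of 1 kind. Klra4 and Siglecg passed, both higher in WTA, so limma called 2 of 49 receptors at an adjusted p under 0.05, where the background was 2.25% of all probe sets and 1.44% in that direction. In the other direction there were 0 of 49, against 0.803%. At an unadjusted p under 0.05 there were 3 receptors, the other being Klra2 (6.12% of the 49, against 16.9% of all probe sets). The median difference was -0.01 over the receptors and -0.02 over all probe sets, and 46 of the 49 differed by less than 0.35.

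Klra4, an activating receptor of natural killer cells, stood at 2.81 (control) and 3.06 (streptozotocin) in WT2, and at 5.48 and 5.43 in WTA. The cultures did not overlap, and the arrays of 1 culture lay close together. The means were 2.94 ± 0.17 in WT2 and 5.45 ± 0.03 in WTA (SD, n = 2 each), a difference of 2.52 (SE 0.12, 95% interval 2.17 to 2.86, limma adjusted p = 0.0213). Its second probe set, marked x, which can stand for probes shared with other genes, had values of 3.16 and 3.28 in WT2 and 4.65 and 4.73 in WTA. It differed by 1.47 (SE 0.094, limma adjusted p = 0.0273). The WT2 values of both lay within the cytokine range, so the sizes are uncertain. In fits with the culture alone, limma's adjusted p was 0.532 without the streptozotocin array of WTA and 0.443 without its control array, while the difference stayed at 2.54 and 2.49.

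Klra2 was higher in WTA by 1.79 in control and by 1.03 in streptozotocin cells, a mean of 1.41 (SE 0.22, 95% interval 0.78 to 2.03) that missed the threshold (limma adjusted p = 0.0863, and 0.455 with the culture alone). With 1 array left out, the difference ran from 0.53 without the control array of WT2 to 2.29 without its streptozotocin array, and was 0.91 without the streptozotocin array of WTA. The other Klra genes had smaller differences, from -0.20 for Klra9 and -0.18 for Klra5 to 0.14 for Klra8. Klra3, Klra6 and Klra9, whose promoters hold the same stretch of 17 bases as those of Klra2 and Klra4, differed by 0.01, -0.01 and -0.20. Klra8, whose promoter is closest to that of Klra4 among the Klra genes measured here, differed by 0.14. The copies of this family are alike and could share probes: 4 of the 10 probe sets carry the mark s (Klra9) or x (Klra6, Klra8 and Klra10). The probe sets used for Klra2 and Klra4 carry neither mark, and sharing of probes was not tested. The natural killer genes outside this family had small differences that did not pass, with Klrd1 at 0.09, Klrc1 at -0.13 and Klrk1 at -0.13, and all of them had means within the cytokine range. The leukocyte and macrophage markers differed by a median of -0.01, from -0.19 to 0.17, and 0 of 7 passed limma's test (0 at an unadjusted p under 0.05). Of 12 endothelial markers 6 were measured, with a median culture difference of 0.10. Of the 6 markers, Esm1 was higher in WTA by 4.93 and Cd34 lower, at -1.07, both past limma's test (adjusted p = 0.00304 and 0.0445). Thbd was higher by 1.33 and did not pass, and Icam2, Sele and Pecam1 differed by -0.19, 0.05 and 0.15. Pecam1, which defines endothelial cells, had a mean of 3.88, within the cytokine range. Their part in the culture differences of the receptors was not tested.

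Siglecg was higher in WTA by 1.16 in control and 1.09 in streptozotocin cells. Its means were 6.47 ± 0.26 in WT2 and 7.59 ± 0.21 in WTA (SD, n = 2 each), a difference of 1.12 (SE 0.095, 95% interval 0.85 to 1.40, limma adjusted p = 0.0445). The cultures did not overlap, and all 4 values lay above the array median level. The call was close to the threshold: limma's adjusted p was 0.0695 after quantile normalization, 0.0743 among the probe sets above the array median level and 0.115 in a fit with the culture alone. With 1 array left out of that last fit it ran from 0.0790 to 0.732, and the difference from 0.94 to 1.31.

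Among the lower differences in WTA none passed the test. Mrc2 differed by -0.34 (95% interval -0.70 to 0.02, limma adjusted p = 0.319), with -0.51 in control and -0.18 in streptozotocin cells, and Mrc1 by -0.20. Clec10a differed by -0.15. Clec2d differed by 0.24 (95% interval -0.36 to 0.84), with 0.60 in control and -0.12 in streptozotocin cells, and the dim Clec2h by 0.20.

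**Figure D3:**
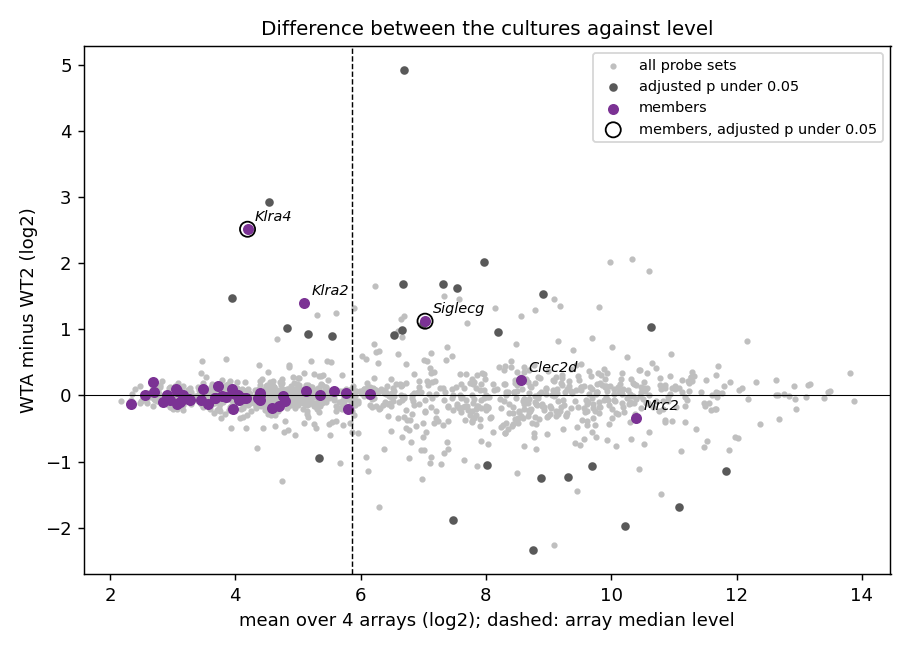
WTA minus WT2 on the log2 scale against the mean over the 4 arrays, for the 49 receptors (purple), all probe sets (light grey) and those at an adjusted p under 0.05 (dark grey). The ringed receptors are those that passed, Klra4 at 2.52 left of the array median level (dashed) and Siglecg at 1.12 right of it.

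**Figure D4:**
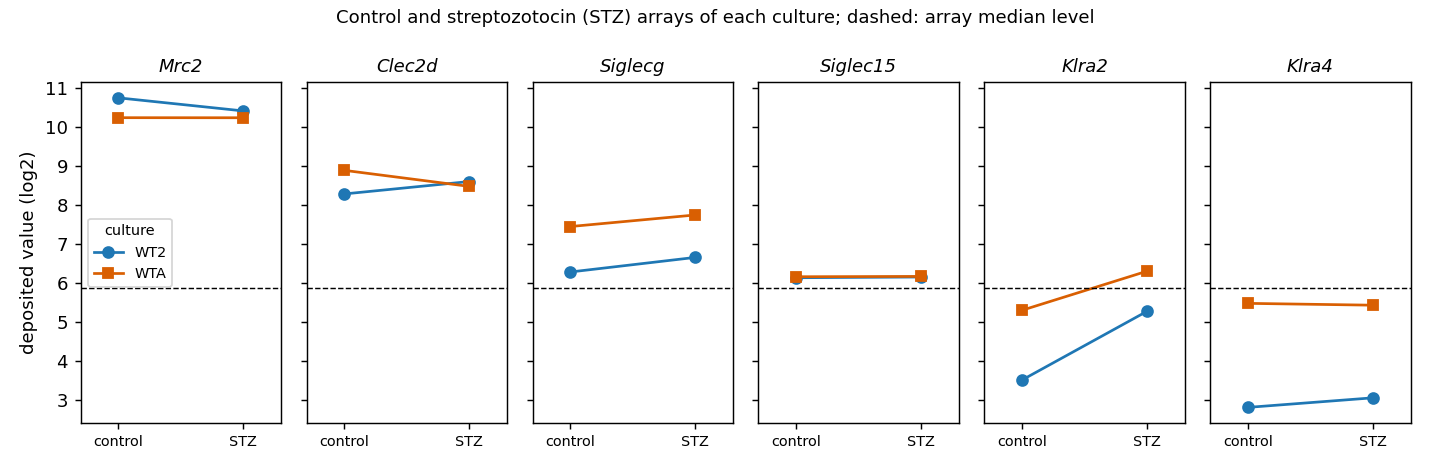
Deposited log2 values of 6 receptors in control and streptozotocin (STZ) cells, with a line for each culture and the array median level dashed. The lines of the cultures lie apart for Siglecg and Klra4, which passed the culture test, and for Klra2, which did not and is higher with streptozotocin in both, and Siglec15 stays between 6.13 and 6.17.

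Other genes with a C-type lectin fold were measured beside these receptors, from a list of 38 of which 31 had a named probe set. Of these, 9 lay above the array median level (29.0%, against 8.16% of the receptors), among them the matrix proteoglycan gene Vcan at 10.44, Thbd, the thrombin cofactor, at 9.81, and Colec12, a scavenger collectin, at 7.92. None of the 31 passed limma's test in either comparison. At an unadjusted p under 0.05 there were 3 of the 31 for streptozotocin, against 25 of all 1246 probe sets. For the culture there were 5 (16.1%, against 16.9% of all probe sets). Their largest streptozotocin differences were 0.97 for Olr1, a receptor for oxidised lipoprotein, and 0.60 for Thbd. Mag, a sialic acid-binding protein of myelin, was at 5.80 and differed by -0.10 with streptozotocin. Of 11 adaptors and signalling partners of the receptors 0 had a named probe set, and of 22 ligands and partners 1 had, Icam2, at 5.67, with a streptozotocin difference of 0.15.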

How the data were processed

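RNA was taken with Trizol and labelled as biotin cRNA, per the labels' protocols. The deposited log2 values (1246 probe sets, 4 arrays, medians 5.83 to 5.87) were made by the authors with RMA, per the submitters' processing notes, with no version or settings stated there. RMA usually equalises the arrays' distributions, which hides a shift of most genes one way, and it compresses differences of dim probe sets.

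Probe sets were named by unversioned accession through a RefSeq table (GRCm38.p6, for names and promoters): 963 had 1 symbol. The 283 without one (261 carry UCSC names) may hold further receptors. The 49 receptors had 56 probe sets, and 6 had more than 1.

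limma 3.58.1 (R 4.3.3, lmFit and eBayes) was fitted over all probe sets, with Benjamini-Hochberg adjustment and a threshold of 0.05. The streptozotocin fit had no block (2 residual, 1.68 prior degrees of freedom), and the culture fit held treatment and culture (1 and 2.73). Intervals are these fits' 95% intervals. The titles give a cell sample the same replicate number with and without the compound, which pairs the arrays, and such pairs deviated together (correlation 0.600). The fits were also run on simulated data with independent noise on every array. The real pairs deviated together, so that run does not show how the fits behave here. Biopython 1.88 aligned promoters.

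Receptors and lists were chosen with earlier results of these data known. Named were receptors above the array median level or past the threshold, the 5 largest differences each way in each fit and the 5 lowest means. Of other lists, genes past the threshold and the 2 largest streptozotocin differences were named. Further genes were named after their values were seen.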

Additional observations from a re-analysis of the deposited data

Results flagged for a closer look

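The streptozotocin difference had opposite signs in the 2 cultures for 8 named receptors, with 1 pair of arrays per culture. The difference between the cultures was not tested. Clec2d stood at 0.32 (WT2) and -0.41 (WTA), and Clec10a at -0.19 (WT2) and 0.10 (WTA). Clec4f stood at -0.22 (WT2) and 0.0084 (WTA), Klra4 at 0.24 (WT2) and -0.047 (WTA), and Klra5 at -0.13 (WT2) and 0.018 (WTA). The values of the others were smaller: Mrc1 had 0.033 (WT2) and -0.0019 (WTA), Clec4e 0.014 (WT2) and -0.021 (WTA), and Clec4a2 -0.025 (WT2) and 0.0070 (WTA). With differences near 0, opposite signs are common: 24 of the 49 receptors and 610 of the 1246 probe sets had opposite signs or a value of 0.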

How the results depend on the processing

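The streptozotocin count of 0 receptors and 0 probe sets at an adjusted p under 0.05 held in limma with the replicate block (0 and 0), median centring, quantile normalization, the probe sets above the median level, an intensity trend, a robust fit, the mean of all probe sets of a gene, and each array left out (0 to 0). In the culture comparison limma called 2 receptors and 28 probe sets. The counts were 1 and 8 after quantile normalization, 0 and 2 among the probe sets above the median level (where Klra4 was not tested), 1 and 13 with the culture alone, and, with 1 array also left out of that fit, 0 to 1 and 0 to 18 (18 without the streptozotocin array of WT2, 12 without its control array, 0 without either array of WTA). The robust fit called 2 receptors and 49 probe sets. The cause was not tested, other than that the filter tests fewer probe sets and the last fits hold fewer arrays. The 4 receptors above the array median level were 1 above the upper quartile and 4 to 5 with 1 array left out. Of 153 values of named receptors under settings that keep all arrays, 148 kept their direction and their side of the threshold, and of 96 with 1 array left out, 83 did. The intensity trend, the robust fit, the replicate block, the culture alone and the median filter cannot change a difference. Streptozotocin values were also far from the threshold, so the first count is no measure of robustness. Siglec15 turned to -0.040 (streptozotocin) and -0.050 (culture) after quantile normalization. With 1 array left out, the streptozotocin difference turned for Klra4 (-1.23 to 1.43), Clec2d (-0.35 to 0.26), Mrc2 (-0.42 to 0.086) and Siglecg (-0.25 to 0.92). With 3 arrays the arms no longer hold the cultures equally, and the culture difference enters these values. With 4 arrays and most receptors near background, small changes cannot be seen.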
